A study of Homo sapiens with 19 samples.

Results

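The NF-κB pathway genes BIRC2, BIRC3, NFKBIZ, NFKBIA, NFKB1, NFKB2, RELA, RELB, TNFAIP3 and IRF1, 10 of the 20037 protein-coding genes placed in GRCh38, were examined for superenhancers and OCT-2 binding in human triple-negative breast cancer cells. They were chosen by their superenhancers and OCT-2 peaks within 10, 50 and 200 kb in these same lists, so their counts below describe them and test nothing. Superenhancers are broad stretches of dense H3K27 acetylation, and OCT-2, the product of POU2F2, is a POU transcription factor that binds the octamer motif. The cells compared were 231Pa_Luc+OCT-2, MDA-MB-231 cells that stably carry luciferase and POU2F2 transgenes, and 231Pa_Luc+GFP, MDA-MB-231 cells with luciferase and GFP transgenes. MDA-MB-231 is an established line from a triple-negative breast cancer, and both derivatives are polyclonal per the labels, so luciferase is common to them and the other transgene sets them apart. Of these 2 populations, H3K27ac was precipitated in both, and OCT-2 only in the cells with the POU2F2 transgene. Each precipitation had 2 replicates, which the authors joined in 1 deposited list. The lists hold positions without read counts, scores or values per replicate. No spread between replicates, no depth and no strength of a region or peak can therefore be given, and a difference between the populations has no replicate check. No OCT-2 list of 231Pa_Luc+GFP was analysed here.

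NF-κB is a family of dimeric transcription factors built from RELA, RELB, the product of REL and the processed products of NFKB1 and NFKB2. In resting cells IκB proteins such as the product of NFKBIA hold the dimers in the cytoplasm, and signals from cytokine receptors lead to phosphorylation and loss of IκB in the canonical branch, or to processing of the NFKB2 product in the noncanonical branch. The dimers bind κB elements at their targets, and NFKBIA, TNFAIP3, NFKBIZ and BIRC3 are themselves known targets that feed back on the pathway. MDA-MB-231 is known for constitutive NF-κB activity.

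The 231Pa_Luc+OCT-2 list held 518 superenhancers with a median width of 84.9 kb, and the 231Pa_Luc+GFP list 337 with a median of 105.2 kb. Regions that overlapped by 1 bp or more between the lists are called shared here, and the others are named for the cells that have them (204 Luc+OCT-2-only and 29 Luc+GFP-only regions). Of 5 genes typical of mesenchymal and basal breast cancer lines, VIM, CD44, AXL and EGFR lay within 10 kb of a shared superenhancer and ZEB1 did not. None of 5 luminal genes (ESR1, PGR, ERBB2, GATA3, FOXA1) and none of the leukocyte genes PTPRC, CD79A, MS4A1 and CD3E had a superenhancer within 10 kb in either population. Over all protein-coding genes, 1.87% lay within 10 kb of a Luc+OCT-2-only region, 4.23% of a shared and 0.23% of a Luc+GFP-only region. Absence therefore does not set these luminal and leukocyte genes apart from most genes. OCT-2 peaks were not confined to the genes at superenhancers. A peak lay within 10 kb of VIM, CD44, AXL and EGFR, as a superenhancer did, and not of ZEB1. ESR1, GATA3 and PTPRC also had a peak within 10 kb, as did 15.5% of all protein-coding genes. POU2F2 itself lay at a shared superenhancer, with 0 OCT-2 peaks within 200 kb.

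Promoter sequences from RefSeq (GRCh38.p14), from 250 bases before to 50 bases after the gene start, were searched for 2 motifs on both strands. These were the octamer ATGCAAAT, to which POU factors bind, and the 10-base κB consensus, to which NF-κB dimers bind. The table held 15 promoter windows for 9 of the 10 genes. Of these 9 genes, 7 had a κB match: BIRC3, NFKBIZ, NFKBIA, NFKB1, NFKB2, TNFAIP3 and IRF1. A κB match stood in 9 of the 15 windows, against 5.91% of the 35116 windows in the table. BIRC2 and RELA had none, and NFKB2 had 3 matches before the second of its 3 starts, of which 2 overlap, and 2 before the last. The windows below are shown because they span the range of patterns: BIRC3 has an OCT-2 peak over its promoter, NFKBIA a superenhancer in both populations, NFKBIZ a superenhancer in 231Pa_Luc+OCT-2 alone, and TNFAIP3 neither. Capitals mark the κB matches, each window reads 5′ to 3′ on the strand of its gene, and each was placed at chr11:102317234-102317533 (BIRC3, plus strand), chr14:35404700-35404999 (NFKBIA, minus strand), chr3:101827740-101828039 (NFKBIZ, the first of 2 starts, plus strand) and chr6:137867009-137867308 (TNFAIP3, plus strand).
BIRC3: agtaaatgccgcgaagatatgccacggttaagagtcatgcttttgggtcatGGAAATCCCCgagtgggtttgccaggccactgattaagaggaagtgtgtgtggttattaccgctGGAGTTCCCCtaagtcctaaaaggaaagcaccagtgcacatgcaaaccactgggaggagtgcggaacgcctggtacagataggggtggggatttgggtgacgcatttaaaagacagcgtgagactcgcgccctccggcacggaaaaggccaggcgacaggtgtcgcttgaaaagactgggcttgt
NFKBIA: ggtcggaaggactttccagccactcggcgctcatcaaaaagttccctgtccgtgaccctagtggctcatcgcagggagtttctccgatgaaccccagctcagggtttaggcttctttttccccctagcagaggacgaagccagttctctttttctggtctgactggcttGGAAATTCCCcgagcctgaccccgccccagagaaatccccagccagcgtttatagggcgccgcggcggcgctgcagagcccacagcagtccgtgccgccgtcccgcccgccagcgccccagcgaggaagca
NFKBIZ: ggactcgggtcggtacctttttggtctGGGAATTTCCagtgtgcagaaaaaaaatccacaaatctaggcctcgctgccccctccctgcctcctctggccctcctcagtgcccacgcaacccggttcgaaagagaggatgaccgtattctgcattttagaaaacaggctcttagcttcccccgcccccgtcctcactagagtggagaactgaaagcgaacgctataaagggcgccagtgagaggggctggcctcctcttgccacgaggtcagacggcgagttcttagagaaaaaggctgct
TNFAIP3: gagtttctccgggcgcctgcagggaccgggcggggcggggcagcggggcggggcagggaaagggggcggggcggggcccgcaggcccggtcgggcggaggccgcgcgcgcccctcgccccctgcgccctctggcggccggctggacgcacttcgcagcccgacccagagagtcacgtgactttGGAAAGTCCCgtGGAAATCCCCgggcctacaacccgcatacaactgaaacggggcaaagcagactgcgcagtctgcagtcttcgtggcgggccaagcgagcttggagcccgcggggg

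The complete octamer was in none of the 15 windows. It was in 78 of the 496 promoter windows that meet an OCT-2 peak (15.7%), against 623 of all 35116 (1.77%). The BIRC3 window holds the first 7 letters of the octamer followed by a C (ATGCAAAC), at bases -96 to -90 from the gene start, a site sought after the window had been read. Those 7 letters, ATGCAAA, were in 21.0% of the windows that meet an OCT-2 peak, against 4.46% of all windows, and in none of the other 14 windows of these genes. These shares include windows with the complete octamer: 78 of the 104 windows that meet a peak, and 623 of the 1567 among all windows. They therefore do not give the share of sites that, like that of BIRC3, lack the last letter. The κB consensus was in 6.85% of the windows that meet an OCT-2 peak, against 5.91% of all.

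**Figure D1:**
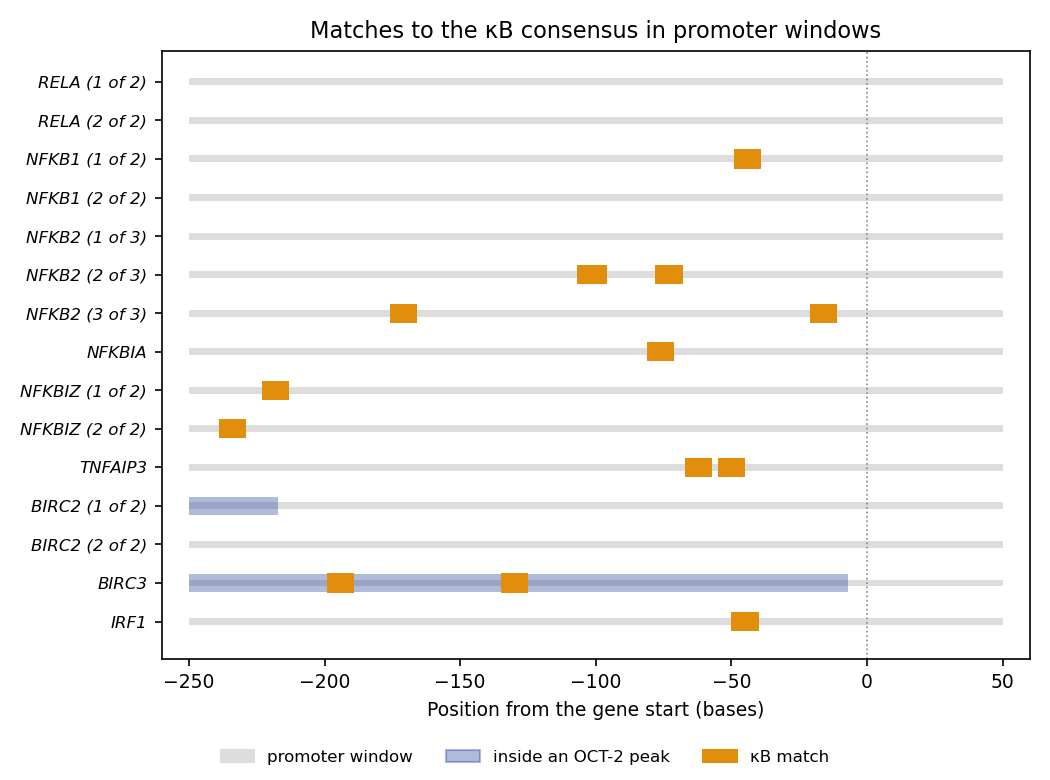
Matches to the κB consensus (orange) in the 15 promoter windows of 9 genes, by position from the gene start in bases (0 is the start). Blue marks the part inside an OCT-2 peak, which covers 243 bases of the BIRC3 window, with both of its κB matches, and 33 bases of the first BIRC2 window.

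Among the 10 genes, 3 lay within 10 kb of a Luc+OCT-2-only superenhancer: BIRC2, BIRC3 and NFKBIZ. Over all protein-coding genes the share was 1.87%. NFKBIA and IRF1 lay at shared superenhancers, a class that held 4.23% of all protein-coding genes. No gene of the group lay at a Luc+GFP-only region, where 0.23% of all genes lay. These 5 genes stand for 4 regions, 2 of each class, because BIRC2 and BIRC3 met the same one. The same 3 genes and the same 2 were found within 50 kb, where 2.56% of all genes were at a Luc+OCT-2-only and 5.63% at a shared region. Within 200 kb the Luc+OCT-2-only genes were again these 3 (4.89% of all genes), and RELA, RELB and NFKB2 joined NFKBIA and IRF1 at shared regions (11.2% of all genes). NFKB1 and TNFAIP3 had no superenhancer within 200 kb in either population.

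Of the 10 genes, 4 (BIRC2, BIRC3, NFKBIA and NFKB1) had an OCT-2 peak within 10 kb of the gene body, against 15.5% of all protein-coding genes. Within 50 kb the genes with a peak were the same 4 (28.9% of all genes), and within 200 kb they were 9, all but TNFAIP3 (58.1% of all genes). Behind these counts stand 5 distinct peaks within 10 kb and 25 within 200 kb, of which 12 lay inside a superenhancer of the same cells. The share of all OCT-2 peaks inside a superenhancer is not given here. The genes were also chosen by these regions and peaks, so the 12 of 25 cannot be read as a trait of them. Near the limits, the peak that gave NFKBIA its place within 10 kb was 9.63 kb from the gene, and the next peak of BIRC3 lay outside at 10.9 kb. The nearest superenhancers of RELB and NFKB2 were just inside 200 kb, at 192.0 and 190.3 kb in 231Pa_Luc+OCT-2, against 191.8 and 190.3 kb in 231Pa_Luc+GFP.

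**Figure D2:**
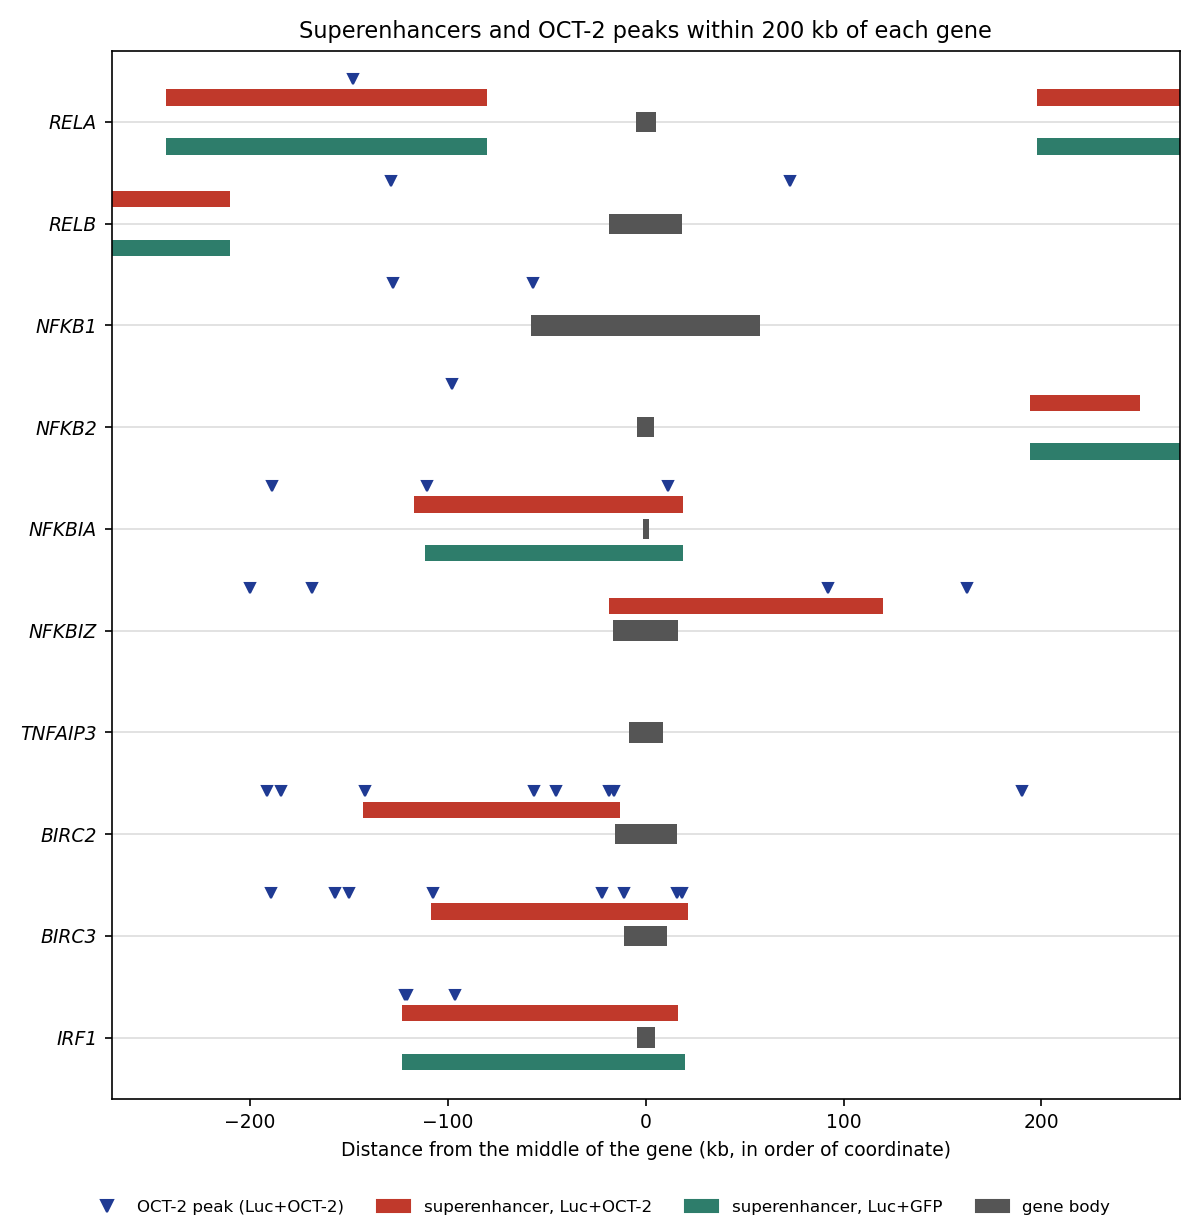
Superenhancers of 231Pa_Luc+OCT-2 (red) above those of 231Pa_Luc+GFP (green), and OCT-2 peaks of 231Pa_Luc+OCT-2 (triangles), around each of the 10 genes, by distance in kb from the middle of the gene in order of coordinate. Regions that run past the edge are clipped. BIRC2, BIRC3 and NFKBIZ have a red bar without a green one, NFKBIA and IRF1 have both over the gene, and NFKB1 and TNFAIP3 have neither.

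The ubiquitin ligase genes BIRC3 and BIRC2 combined a superenhancer of 231Pa_Luc+OCT-2 alone with several OCT-2 peaks. Their products, cIAP2 and cIAP1, attach ubiquitin to RIPK1 in the TNF receptor complex and keep the noncanonical kinase NIK low. Both genes lie on the plus strand of chromosome 11 (BIRC3 at 102317484 to 102339403, BIRC2 at 102347214 to 102378670, hg38), with 7.81 kb between them. The region at 102219966 to 102349793, 129.8 kb wide, ranked 24th by width among the 204 Luc+OCT-2-only regions and 113th among all 518. It covered 100% of BIRC3 and ended inside BIRC2, of which it covered the first 8.2%, the 5′ end. At its other side it covered 10.9% of YAP1, which encodes a coactivator of the Hippo pathway and is the only other protein-coding gene in it.

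In 231Pa_Luc+OCT-2 this region overlapped both genes, where the median distance of all protein-coding genes to a superenhancer on their chromosome was 1.55 Mb. In 231Pa_Luc+GFP the nearest was 5.97 Mb from BIRC3 and 6.0 Mb from BIRC2, where the median was 2.52 Mb. Whether acetylation at the locus lay just under the authors' threshold in 231Pa_Luc+GFP cannot be read from a list of positions.

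OCT-2 peaks marked the 5′ ends of both genes. For BIRC3, the centre of a 299 bp peak (102317178 to 102317476) lay at -157 bp from the gene start, and the peak ended 7 bp short of the gene. This peak held 243 of the 300 promoter bases printed above. Both κB matches of that promoter were inside it, with their middles at -37 and 27 bp from the peak's centre, and the middle of the 7 octamer letters was at 64 bp. For BIRC2, the centre of a 411 bp peak (102346586 to 102346996) lay at -423 bp from the first of 2 gene starts, and the peak overlapped the promoter window by 33 bases. A peak within 1 kb of a start was present at 3 of the 9 genes with a start in the table (BIRC2, BIRC3 and NFKB1), against 3.12% of 15843 protein-coding genes with one.

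Further peaks surrounded the pair. BIRC3 had 3 peaks within 10 kb, a number that 1.12% of all protein-coding genes reached or passed, and BIRC2 had 2. The genes share 2 of these peaks, which lie between them. Each had 4 peaks within 50 kb and 8 within 200 kb, and 0.724% of all protein-coding genes had 8 or more at that distance. Of the 9 distinct peaks within 200 kb of either gene, 7 counted for both. YAP1, which the same superenhancer meets, had 4 peaks within 10 kb, more than BIRC3 or BIRC2. Those 4 peaks are among the 9, so the peaks around the pair are not particular to the BIRC genes. Inside the superenhancer lay 5 peaks, at 0.942, 86.4, 97.4, 124.2 and 126.8 kb from its start, of which the first was inside YAP1 and the other 4 stood near BIRC3 and the 5′ end of BIRC2. Of all 204 Luc+OCT-2-only regions, 2 held 5 peaks (0.98%) and none held more, whereas 32 of the 314 shared regions of the same cells (10.2%) held 5 or more. The BIRC region had 38.5 peaks per Mb and the other Luc+OCT-2-only region with 5 peaks had 49.9, against 16.3 per Mb over all Luc+OCT-2-only and 18.7 over all shared regions. A Luc+OCT-2-only superenhancer together with a peak within 10 kb was found at BIRC2 and BIRC3, and at 0.813% of all protein-coding genes.

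**Figure D3:**
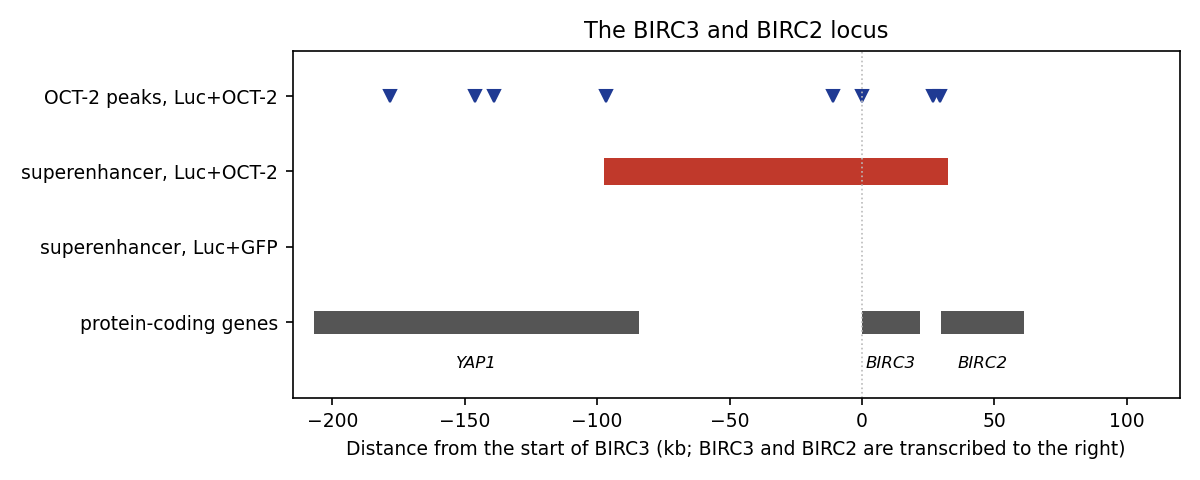
The BIRC3 and BIRC2 locus by distance in kb from the start of BIRC3, with OCT-2 peaks (triangles) and the superenhancer (red) of 231Pa_Luc+OCT-2, an empty row for 231Pa_Luc+GFP, and the protein-coding genes that the region meets (grey). The 129.8 kb region ends just inside BIRC2, and 4 of its 5 peaks lie towards the BIRC genes.

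Genes with the pattern most like that of BIRC3 were sought among the 372 other genes at Luc+OCT-2-only regions, leaving out those within 1 Mb of it on its chromosome, by the Euclidean distance of log2(peaks + 1) within 10, 50 and 200 kb. The nearest 5 were ARHGEF28 at a distance of 0.17 (3, 4 and 7 peaks in the 3 windows), MTHFD2L at 0.36 (3, 3 and 7), MED20 and PTK2 at 0.44 (2, 4 and 9 each) and BYSL at 0.51 (2, 5 and 9). MED20 and BYSL both lie on chromosome 6, so they need not be separate loci. The likeness rests on 3 overlapping windows of 1 list.

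NFKBIZ had the same class of superenhancer as BIRC3 without OCT-2 binding close by. It encodes IκBζ, an atypical nuclear IκB protein that acts as a coactivator for a subset of NF-κB targets. The gene (chromosome 3, 101827990 to 101861022, plus strand) was wholly inside a Luc+OCT-2-only region at 101826004 to 101964674. That region is 138.7 kb wide, the 16th widest of the 204. It began 1.99 kb before the gene and ran 103.7 kb beyond its end, so most of it lies past the 3′ end, and of protein-coding genes it otherwise met only NXPE3, by 4.54% of that gene. In 231Pa_Luc+GFP the nearest superenhancer was 2.84 Mb away. The region held 1 OCT-2 peak (101936700 to 101936986), 75.7 kb beyond the end of the gene. The other 3 peaks within 200 kb were outside the region, at 145.8, 152.3 and 183.5 kb. NFKBIZ had 0 peaks within 10 and 50 kb and 4 within 200 kb, which 7.69% of all protein-coding genes reached.

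**Figure D4:**
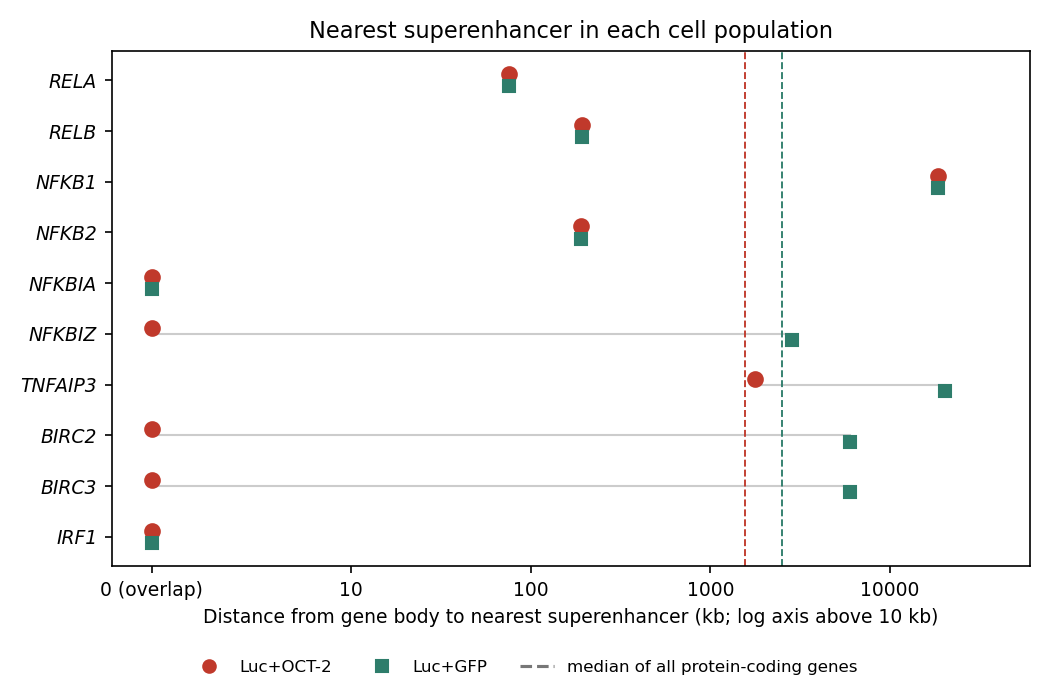
Distance in kb from each gene body to the nearest superenhancer of 231Pa_Luc+OCT-2 (circles) and of 231Pa_Luc+GFP (squares), on a log axis above 10 kb, with dashed lines at the medians of all protein-coding genes (1548.9 and 2516.8 kb). The symbols part at NFKBIZ, TNFAIP3, BIRC2 and BIRC3 and coincide at the other genes.

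NFKBIA and IRF1 kept a superenhancer of nearly the same extent in both populations. NFKBIA encodes IκBα, the inhibitor that NF-κB induces to end its own response. Its gene (chromosome 14, 35401513 to 35404749, minus strand) was wholly inside a region of 136.1 kb in 231Pa_Luc+OCT-2 (35285827 to 35421902) and of 130.3 kb in 231Pa_Luc+GFP (35291519 to 35421862). The regions ended 40 bp apart on the side of the promoter, and their other ends differed by -5692 bp (231Pa_Luc+OCT-2 minus 231Pa_Luc+GFP), which made the 231Pa_Luc+OCT-2 region the longer one. Of the bases of the region, 95.8% in 231Pa_Luc+OCT-2 and 100% in 231Pa_Luc+GFP were also in the other list, against medians of 99.9% and 99.3% over all shared regions. The 2 OCT-2 peaks in the NFKBIA region lay in the superenhancer of both populations. One (35414376 to 35414613) was 9.63 kb before the gene start, and the other was 109.0 kb from the far end of the gene, inside the region's outer edge. The only other protein-coding gene in the region was PSMA6, a proteasome subunit gene, covered by 81.3% in 231Pa_Luc+OCT-2 and 66.7% in 231Pa_Luc+GFP.

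IRF1 encodes an interferon regulatory factor that is a known NF-κB and interferon target. The gene (chromosome 5, 132481609 to 132490773, minus strand) was wholly inside a region of 139.7 kb in 231Pa_Luc+OCT-2 (132362960 to 132502627) and of 143.2 kb in 231Pa_Luc+GFP (132362771 to 132505933). On the side of the IRF1 promoter the ends differed by -3306 bp (231Pa_Luc+OCT-2 minus 231Pa_Luc+GFP), and at the other end by 189 bp. Its 3 OCT-2 peaks were all far from IRF1, at 91.6, 116.0 and 116.9 kb from the gene. They lay within 10 kb of SLC22A5, a carnitine transporter gene at the other end of the region. IRF1 therefore had 0 peaks within 50 kb and 3 within 200 kb.

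The 4 genes of NF-κB subunits had no superenhancer within 50 kb in either population. RELA encodes p65, the main transactivating subunit of the canonical dimer. Its gene (chromosome 11, 65653601 to 65663857) had its nearest superenhancer 75.2 kb away in 231Pa_Luc+OCT-2, against 75.3 kb in 231Pa_Luc+GFP. A further shared region was 192.7 kb away on the other side in 231Pa_Luc+OCT-2, against 192.5 kb in 231Pa_Luc+GFP. The only OCT-2 peak within 200 kb of RELA was at 142.5 kb, inside the nearer superenhancer. RELB, the partner of the noncanonical dimer, lies on chromosome 19 at 45001464 to 45038192. It had 2 peaks within 200 kb, at 54.6 and 110.2 kb, both outside superenhancers.

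NFKB2 encodes p100, the precursor of p52. The gene (chromosome 10, 102394110 to 102402529) had 1 peak within 200 kb, at 93.4 kb on one side. The superenhancer on its other side was 55.3 kb wide in 231Pa_Luc+OCT-2, against 84.3 kb in 231Pa_Luc+GFP, and 65.6% of the wider region was also in the other list. NFKB1, which encodes p105, the precursor of p50, stood apart from the other subunit genes. Its gene (chromosome 4, 102501359 to 102617302) had a peak near its 5′ end (102502329 to 102502657), whose centre was 559 bp past the second of 2 gene starts. It was the only peak that lay inside the body of any of the 10 genes. Of all protein-coding genes on a chromosome with a peak, 10.8% had a peak in the body. No superenhancer was near NFKB1: the nearest was 18.6 Mb away in both populations, and 94.5% of all protein-coding genes had one as near or nearer in 231Pa_Luc+OCT-2, against 89.9% in 231Pa_Luc+GFP.

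TNFAIP3 was the only member with neither a superenhancer nor an OCT-2 peak within 200 kb. It encodes A20, a ubiquitin-editing enzyme that ends NF-κB signalling, and lies on chromosome 6 at 137866349 to 137883312. The nearest OCT-2 peak was 710.0 kb away, and 88.6% of all protein-coding genes had one as near or nearer. The nearest superenhancer was 1.77 Mb away in 231Pa_Luc+OCT-2 and 20.1 Mb away in 231Pa_Luc+GFP. Its promoter carries 2 κB matches, at bases -67 to -58 and -55 to -46, as printed above.

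**Figure D5:**
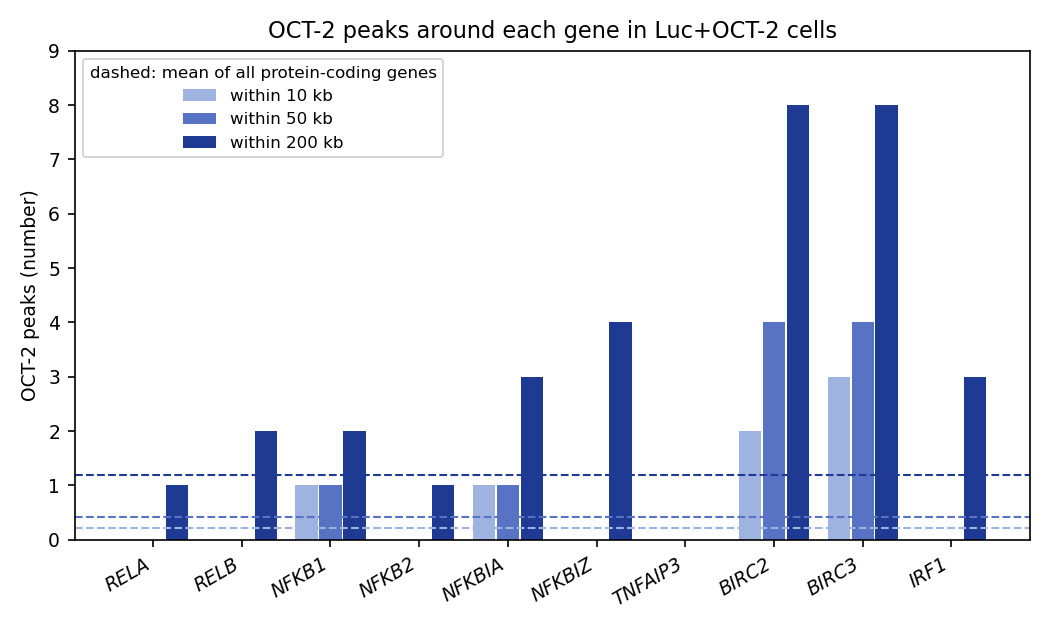
Number of OCT-2 peaks of 231Pa_Luc+OCT-2 within 10, 50 and 200 kb of each gene body (bars), with the mean of all protein-coding genes for each window (dashed lines, 0.212, 0.42 and 1.2). BIRC2 and BIRC3 reach 8 peaks within 200 kb, of which 7 are the same peaks, and TNFAIP3 has none.

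Among 67 further genes of the pathway, grouped by role, 5 (7.46%) lay within 10 kb of a Luc+OCT-2-only region, 6 (8.96%) of a shared region and 0 of a Luc+GFP-only region, and 14 (20.9%) had an OCT-2 peak within 10 kb. The shares over all protein-coding genes are those given above for the same windows (1.87%, 4.23%, 0.23% and 15.5%). The Luc+OCT-2-only genes were the receptor genes TNFRSF1A and LTBR, which share a region of 62.7 kb, the cytokine genes TNF and LTA, which share 1 of 42.4 kb, and ZC3H12A, at 1 of 141.6 kb. ZC3H12A encodes regnase-1, an RNase that degrades inflammatory transcripts. It alone of these 5 had an OCT-2 peak within 10 kb. Counted by regions, then, 5 genes stood for 3 superenhancers, and with only the 337 widest regions of 231Pa_Luc+OCT-2 the count was 1, ZC3H12A.

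The genes at shared regions were the kinase genes IKBKB and IKBKG, the atypical IκB gene BCL3, the feedback gene TNIP1, the survival gene CFLAR and the protease gene PLAU. Of these, BCL3, TNIP1 and CFLAR had 1 peak each within 10 kb. None of 14 adaptor and ubiquitin ligase genes and none of 5 interferon regulatory factor genes besides IRF1 lay at a superenhancer. Of all protein-coding genes, 1.87% lay at a Luc+OCT-2-only and 4.23% at a shared region, so absence from sets this small is no trait of them. A peak within 10 kb was present at 2 genes of each set: TRAF3, RIPK1, IRF2 and IRF3. These are 14.3% of the adaptor set and 40.0% of the interferon regulatory factor set, against 15.5% of all protein-coding genes. CHUK, the gene of the IKKα kinase, had a peak within its body, and MAP3K14, the gene of NIK, had 1 at 3.05 kb with a shared superenhancer at 14.4 kb in 231Pa_Luc+OCT-2, against 14.6 kb in 231Pa_Luc+GFP. The remaining genes with a peak within 10 kb were IL1R1, TLR4, ITCH and CXCL3, none of them at a superenhancer.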

How the data were processed

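Per the labels' protocols, chromatin was precipitated with 5 µg of either antibody, and 15 cycles of PCR followed adaptor ligation. Tools listed in the submitters' processing notes are bedtools, HOMER, Bowtie and Bowtie2 2.2.2.6; hg38 and hg19 are the builds. Roles, thresholds and input subtraction are not given in the sources used here, and no input of the 2 transgenic populations was analysed here. The authors deposited interval lists without a measured value; the 3 hg38 lists of 10 were used, with starts turned to 1-based. The hg19 lists, and lists with no named build that overlap the hg19 ones more often, were not used here, because genes were placed in GRCh38. Each region joins 2 or 3 merged calls, and 5 of 5741 peaks on unplaced contigs were left out. The lists give no depth, so no precision can be stated.

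Gene bodies came from RefSeq GRCh38.p14 (20037 protein-coding genes). Distances count the bases between intervals. A gene at both a shared and a specific region counted as shared. The members, the further pathway genes, the markers and the naming rule (members, genes sharing their regions, pathway genes at a region or peak, the 5 genes most like BIRC3) were chosen with earlier results of these data known; the 7-letter octamer search was added after the promoters were read. A further marker gene is not reported here. Interval counts were checked on simulated data. Python 3.11.15, numpy 2.4.6, pandas 2.3.3 and matplotlib 3.10.9 were used.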

Additional observations from a re-analysis of the deposited data

How the results depend on the processing

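Of 28 alternatives, 20 left the counts within 1.5 times of those reported. Among the 20 are all those for Luc+GFP-only regions, where 0 members stayed 0 and a ratio has no meaning. Others use the 50 and 200 kb windows by which the members were chosen. BIRC2, BIRC3 and NFKBIZ stayed at Luc+OCT-2-only regions, and NFKBIA and IRF1 at shared ones, without extension of the gene, within 50 kb, with the 337 widest regions of 231Pa_Luc+OCT-2 alone (69.6 kb or wider) and with an overlap of 50% of the shorter region between the populations. With the gene nearest to the middle of a region, BIRC2 was lost and 2 of the 3 remained, and 0 members were at shared regions, since other genes lie nearer the middle of those of NFKBIA and IRF1. Shared regions took 5 members within 200 kb. Members with an OCT-2 peak were 1 (NFKB1) for the gene body alone, 9 within 200 kb and 0 with only the 3 peaks of over 2 merged calls. With the gene nearest to each peak they were 5, with NFKBIZ added. Of all protein-coding genes on a chromosome with a peak, 10.8% had a peak in the gene body, near the share of the members. So few peaks of over 2 calls could hardly meet a member. For the nearest gene the share over all genes is not given here. A peak within 50 kb was present at 29 of the 67 further pathway genes, and at 5781 of all 20037 protein-coding genes (28.9%). With the widest regions alone, 1 of the 67 was in the Luc+OCT-2-only class. With the first 7 letters of the octamer, added after the data were seen, 1 member had a match (BIRC3) in place of 0.

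No paired analysis was possible because the lists join the replicates and no test was made. Leaving out a replicate was not possible either. The depth behind the lists is unknown, and their lengths differ, with 518 regions in 231Pa_Luc+OCT-2 against 337 in 231Pa_Luc+GFP.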
